A study of Homo sapiens with 8 samples.

Results

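The constant distal open sites were the places outside promoters where open chromatin was called in every library of the study. FAIRE-seq, in which formaldehyde-fixed chromatin is sonicated and the DNA left free of protein by phenol-chloroform extraction is sequenced, was carried out in U2OS, an established line from a human osteosarcoma. The 8 libraries came from 4 single-cell clones. WT clones 4 and 5 carried an intact ZBTB48 gene, and clones C5 and D2 were ZBTB48 knockouts (KO), ZBTB48 being a zinc finger protein that binds telomeric repeats and also acts at gene promoters. Every clone was sequenced untreated and after 250 U/ml interferon gamma (IFNγ), given for 24 h per the labels and for longer per the study's text, so the duration is uncertain. All groups shared the same parental line, and each genotype was represented by 2 clones only.

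Sites were chosen by their peak calls, so their presence in all libraries is the rule and not a result. The peaks of the 8 lists on chromosomes 1 to 22 and X were joined into regions wherever they overlapped by 1 bp. Of 52105 regions, 11551 had a peak in all 8 lists. Of these, 1305 were under 2000 bp long and lay more than 1 kb from every annotated transcription start site (TSS) of GENCODE 44, whatever the gene type. They made up 11.3% of the constant regions and 4.47% of the 29163 distal regions under 2000 bp, whereas 43.98% of the 22618 regions within 1 kb of a TSS were constant. They were compared with 9948 constant promoters, which met the same rule but lay within 1 kb of a TSS, and with 27858 variable distal regions, which had a peak in 1 to 7 of the lists.

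Open chromatin away from promoters marks enhancers, insulators and other regulatory elements. Many enhancers of mesenchymal cells are bound by AP-1, the dimer of FOS and JUN proteins, together with TEAD and RUNX factors. Insulators are bound by CTCF, which holds the bases of chromatin loops, and CpG islands, stretches rich in unmethylated CG dinucleotides that often act as promoters, are kept open by factors that read them. Tandem repeats near centromeres, built from long monomers or from very short units, are normally packed as heterochromatin and are hard to place reads on.

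The sequences fell into 4 classes, set after the composition of the sites had been seen. A CpG-rich site had a GC content of at least 50% and an observed over expected CpG ratio of at least 0.6 in the 300 bases round its median summit, and 817 sites did. A repeat site had a GC content under 45% and recurred along the 1000 bases round its summit, either at a lag of 5 bases (identity of at least 45%, 17 short-repeat sites) or at a lag of 168 to 174 bases (identity of at least 33%, 68 long-repeat sites). A site that met both limits was counted as a short repeat. The remaining 403 sites were CpG-poor. The sequences printed next show examples of each class in 200 bases round the summit, on the plus strand of GRCh38. The CpG-rich example is the strongest site of its class with a gene symbol and an SP/KLF match, with the GGGCGG boxes (either strand) in capitals.

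SFN, chr1:26865117-26865316: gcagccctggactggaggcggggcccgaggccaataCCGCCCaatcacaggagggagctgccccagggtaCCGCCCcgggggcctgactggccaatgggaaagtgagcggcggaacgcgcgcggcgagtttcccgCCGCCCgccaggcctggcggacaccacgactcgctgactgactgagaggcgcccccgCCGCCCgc

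The CpG-poor examples with an AP-1 match and the examples with an exact CTCF core were the strongest 2 of each kind among the sites considered for printing, which had a gene symbol and a match near the summit. The AP-1 letters TGANTCA, which read the same on both strands, and the CTCF core are in capitals. The PPL site, in an intron of the periplakin gene, held 2 such AP-1 matches in the bases shown, and the ODC1-DT site, intergenic, held 1.

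PPL, chr16:4944891-4945090: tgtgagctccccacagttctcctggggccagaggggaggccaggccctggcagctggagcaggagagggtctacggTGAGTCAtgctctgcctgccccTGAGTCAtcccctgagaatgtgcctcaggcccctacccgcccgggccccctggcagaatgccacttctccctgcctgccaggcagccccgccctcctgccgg

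ODC1-DT, chr2:10497928-10498127: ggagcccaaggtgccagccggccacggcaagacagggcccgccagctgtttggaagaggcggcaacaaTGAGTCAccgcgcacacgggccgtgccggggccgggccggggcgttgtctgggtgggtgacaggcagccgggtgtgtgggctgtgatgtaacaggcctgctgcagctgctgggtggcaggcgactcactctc

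GORASP2, chr2:170973509-170973708: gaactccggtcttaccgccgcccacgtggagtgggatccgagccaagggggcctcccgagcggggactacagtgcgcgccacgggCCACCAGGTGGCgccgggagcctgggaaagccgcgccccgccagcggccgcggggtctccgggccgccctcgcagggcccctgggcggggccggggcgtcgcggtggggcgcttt

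CACNA1C, chr12:2035012-2035211: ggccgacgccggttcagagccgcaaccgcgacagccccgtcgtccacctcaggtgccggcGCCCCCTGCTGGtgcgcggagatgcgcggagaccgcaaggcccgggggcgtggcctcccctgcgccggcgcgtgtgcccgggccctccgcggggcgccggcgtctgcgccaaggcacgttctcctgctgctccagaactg

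The last pair are the short-repeat site with the highest identity at its lag and, for the long repeats, the site with the highest identity among those on chromosome 18, where they were most numerous. In the short repeat the unit GAATG is in capitals, with 8 copies in the bases shown. In the long repeat the first 29 bases recur as the last 29, at a distance of 171 bases, and both copies are in capitals.

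ENSG00000276118, chr1:143219858-143220057: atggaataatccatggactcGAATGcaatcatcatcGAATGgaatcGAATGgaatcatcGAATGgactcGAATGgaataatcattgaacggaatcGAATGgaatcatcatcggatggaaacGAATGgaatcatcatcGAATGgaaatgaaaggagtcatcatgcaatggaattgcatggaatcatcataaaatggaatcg

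ROCK1, chr18:18819956-18820155: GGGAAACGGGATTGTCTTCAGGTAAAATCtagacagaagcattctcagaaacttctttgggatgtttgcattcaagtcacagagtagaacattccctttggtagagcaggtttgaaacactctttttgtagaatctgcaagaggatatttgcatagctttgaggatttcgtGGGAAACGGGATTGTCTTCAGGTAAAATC

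Most constant distal sites stood outside genes. The median summit was intergenic at 718 sites (55.0%), intronic at 488 (37.4%) and exonic at 99 (7.59%), counting genes of every type. Among variable distal regions 52.5% were intronic and 39.2% intergenic. CpG-poor sites were intronic in 51.4% of cases and CpG-rich sites in 34.4%, whereas all 85 repeat sites were intergenic. Of the exonic sites, 82.8% were CpG-rich. No test was made of any share of sites, since the members were picked on the same lists.

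The sites had a median length of 609 bp (264 to 1965 bp) and a median distance of 7878 bp to the nearest TSS. Distances of 1 to 2 kb were found at 194 sites, of 2 to 5 kb at 274, of 5 to 10 kb at 274 and of 10 to 50 kb at 421. Another 57 lay between 50 and 100 kb away, 30 between 100 and 500 kb, and 55 beyond 500 kb. All 55 of the last were repeat sites. The lag that defines the long-repeat class was read from these same 55 sites, so this overlap is partly built into the class. The nearest TSS belonged to a protein-coding gene at 628 sites, to a lncRNA at 359 and to a pseudogene at 215, and 643 sites (49.3%) were upstream of it. The sites named 1150 different nearest genes. Summits of the 8 libraries fell within a median range of 60 bp at a site, and within less than 100 bp at 990 sites (75.9%).

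The limits of the rule ran through continuous values. Just inside the 1 kb limit were a site 1002 bp upstream of FOS, with fold enrichment between 12.997 and 49.9 over the libraries, and one 1003 bp from BAZ2A. Just outside it were regions 992 bp from NR1D1 (57.3 to 127) and 988 bp from JUNB (19.4 to 39.9). The longest sites inside the 2000 bp limit were 1965 bp (nearest gene ENSG00000287787) and 1920 bp (an exon of the hair follicle protein gene TCHH), and the shortest excluded ones were 2027 bp (MIR6821) and 2068 bp (an intron of BCOR). A further 734 distal regions had a peak in 7 lists. The missing list was that of the untreated library of KO clone C5 at 273 of them and that of KO clone D2 at 136, whereas the IFNγ libraries of WT clone 5 and KO clone C5 lacked 2 each.

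The composition of the sites lay between that of promoters and that of variable distal regions. Their median GC content was 66.7%, against 70.0% in constant promoters and 53.3% in variable distal regions. The median CpG ratio was 0.73, against 0.89 and 0.35. CpG-rich sequence was found at 62.6% of the sites, 96.2% of constant promoters and 13.8% of variable distal regions. Distal regions with a peak in 7 lists were CpG-rich in 31.7% of cases.

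CTCF cores were commoner at the constant distal sites than in both comparison sets. A match with at most 1 mismatch in the 12 bases was found at 341 sites (26.1%), against 9.04% of constant promoters and 12.7% of variable distal regions. Exact matches were found at 102 sites (7.82%), 1.18% and 4.04%, respectively. Distal regions with a peak in 7 lists came close to the sites, with a match at 21.8% and an exact one at 7.22%. CTCF matches were present at 31.7% of CpG-rich and 20.3% of CpG-poor sites. In 500 bases the best match of a CpG-rich site lay at a median of 28 bases from the summit, and 70.7% of such matches were within 50 bases, against 39.2% in constant promoters and 61.9% in variable distal regions, where the median was 35 bases.

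AP-1 matches marked the CpG-poor sites. The letters TGANTCA were found at 261 sites (20.0%), against 4.36% of constant promoters and 28.5% of variable distal regions. They were present at 46.9% of CpG-poor sites and 7.96% of CpG-rich sites. TEAD letters (CATTCC) were found at 27.5% of CpG-poor and 12.1% of CpG-rich sites, and RUNX letters (TGTGGTT) at 8.93% and 1.71%. In CpG-poor sites the nearest AP-1 match in 500 bases lay at a median of 51.5 bases from the summit, with 48.3% within 50 bases. In variable distal regions these values were 46.5 bases and 52.5%, and in constant promoters 105.5 bases and 28.6%. The word GTGAGT, which has the base composition of TTAGGG and can overlap an AP-1 match by 5 bases, was also commoner in CpG-poor (27.0%) than in CpG-rich sites (7.47%).

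SP/KLF boxes were spread in the opposite way. The SP/KLF box GGGCGG was found at 61.5% of the sites, at 85.1% of constant promoters and at 23.5% of variable distal regions, and within the sites at 75.6% of CpG-rich and 45.7% of CpG-poor ones. The ETS letters CCGGAAG were found at 7.13% of the sites, 19.3% of constant promoters and 3.07% of variable distal regions, and the NRF1 letters GCATGCGC at 2.99%, 6.83% and 1.05%. The NF-Y box CCAAT was found at 21.8%, 34.5% and 24.1%, respectively, and at 22.5% of CpG-rich and 21.3% of CpG-poor sites. The telomeric hexamer TTAGGG, to which ZBTB48 binds in tandem arrays, was found at 6.51% of the sites, 6.35% of constant promoters and 6.87% of variable distal regions. All motifs were sought on both strands of 300 bases, and a match says only that the letters are present.

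**Figure D1:**
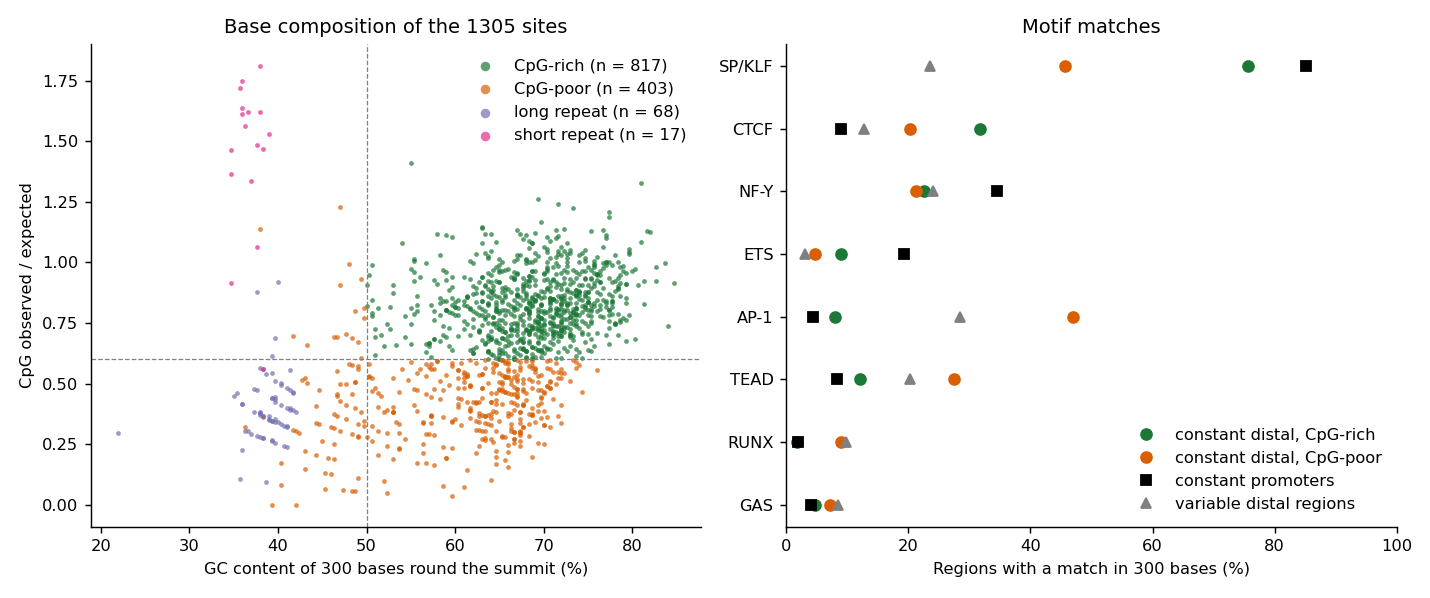
Left, GC content (%) against observed over expected CpG ratio of the 300 bases round each site's summit, each point a site coloured by class, with dashed lines at 50% and 0.6. Right, the percentage of regions with a motif match in 300 bases: AP-1 matches reached 46.9% of CpG-poor sites and 4.36% of constant promoters, and CTCF matches 31.7% of CpG-rich sites and 9.04% of constant promoters.

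**Figure D2:**
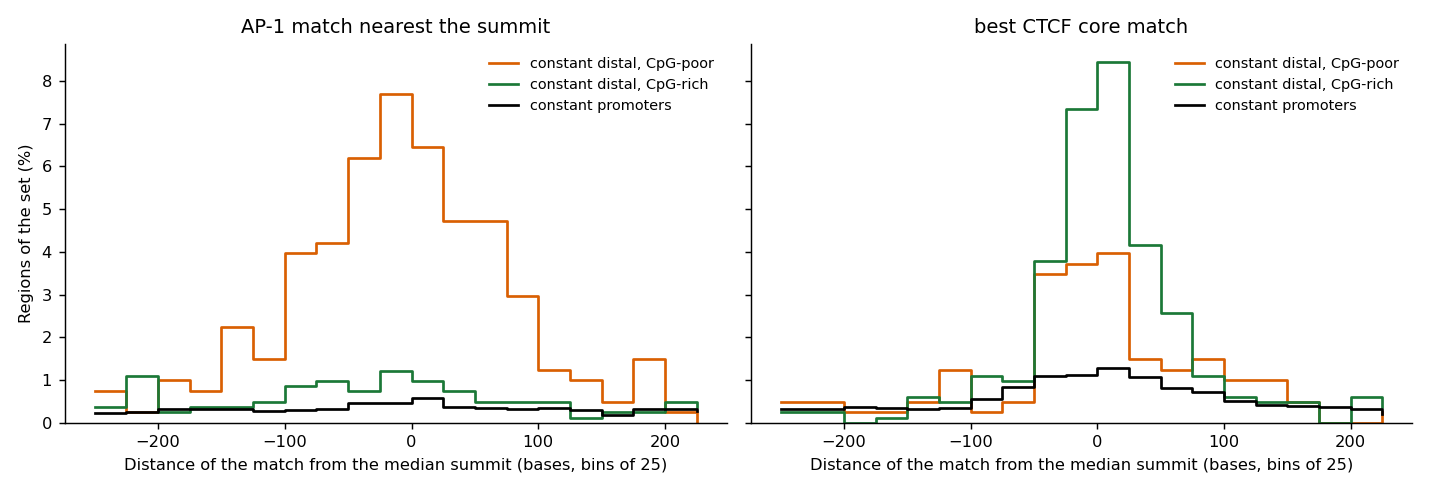
Percentage of regions of each set (y axis) by the distance in bases (x axis, bins of 25) of the AP-1 match nearest the summit (left) and of the best CTCF core match with at most 1 mismatch (right), in 500 bases. AP-1 matches of CpG-poor sites and CTCF matches of CpG-rich sites gather round the summit, and 48.3% and 70.7% of them lie within 50 bases of it.

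The repeat sites formed a separate group. Of the 55 sites beyond 500 kb from a TSS, 36 had their best lag between 100 and 250 bases at 168 to 174 bases, and 31 at exactly 171. The lag of the long-repeat class was taken from these sites. The 68 long-repeat sites had a median GC content of 39.3%, and 25 of the 85 repeat sites lay on chromosome 18. The letters TTCNNNGAA of the palindromic GAS element, found at many IFNγ-responsive genes, were present at 88.2% of long-repeat sites, against 4.77% of CpG-rich and 7.20% of CpG-poor sites, so that 60 of the 131 sites with these letters were long repeats. The 17 short-repeat sites lay on chromosomes 1 (13 sites), 16 (3 sites) and 5. Most of the 17 also met the identity limit at the long lag and were counted as short repeats by the rule for both. The site on chromosome 5, nearest to EMB, had the highest identity at the long lag, 0.476, against 0.465 at the short lag. The TEAD letters CATTCC were found at 64.7% of the short-repeat sites, where they overlap the CATTC unit. Repeat sites made up 6.51% of the constant distal sites, 2.56% of variable distal regions and 0% of constant promoters. Among distal regions with a peak in 7 lists they made up 11.9%, a larger share than among the constant distal sites. No repeat annotation was used.

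Some sites stood close together. Within gaps of 20 kb, 186 sites (14.3%) fell into 84 groups of at least 2, and 11 groups held 3 or more. The largest was a block of 7 short-repeat sites in 21251 bp nearest to ENSG00000276118 on chromosome 1. Groups of 4 sites lay in another such block of short repeats nearest to the same gene (18053 bp), at MIR23AHG on chromosome 19, the host gene of the miR-23a cluster, in 18430 bp, and at ERCC1, which encodes a DNA repair nuclease subunit, in 17037 bp. Groups of 3 had as their nearest protein-coding genes, among others, DNAJB12, BAHCC1, the immediate early gene IER2 and the CpG-binding factor gene CXXC5. By chromosome length the sites were densest on chromosome 19 (1.84 per Mb) and chromosome 17 (1.39 per Mb), and sparsest on chromosome 4 (0.142 per Mb) and chromosome X (0.179 per Mb). Copy number in this aneuploid line was not measured.

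Strength is given as the fold enrichment at the summit, which is the fragment pileup over the local background, each raised by 1, and as a percentile of −log10 p within the library's own list. The median fold enrichment of the 1305 sites was 21.5 and 17.1 in the untreated libraries of WT clones 4 and 5, 15.2 and 25.4 in their IFNγ libraries, 13.8 and 12.7 in the untreated libraries of KO clones C5 and D2, and 17.8 and 12.1 in their IFNγ libraries. The IFNγ library of WT clone 5 was highest and that of KO clone D2 lowest, and treated and untreated libraries overlapped. In every library the sites were weaker than the constant promoters, with a ratio of medians between 0.587 (untreated WT clone 4) and 0.692 (IFNγ KO clone C5). The median percentile of the sites in their own list ran from 49.0 (untreated KO clone D2) to 75.3 (IFNγ WT clone 5). At 438 sites the percentile was above 50 in all 8 lists.

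The order of the classes depended on the library. CpG-poor sites were weaker than CpG-rich sites in WT clone 4, with medians of 14.9 and 25.2 untreated and 11.7 and 16.7 with IFNγ, and in the untreated libraries of KO clones C5 (10.7 and 15.1) and D2 (10.7 and 13.1). In WT clone 5 they were 18.3 and 17.4 untreated and 28.1 and 25.8 with IFNγ. In the IFNγ libraries of KO clones C5 and D2 they were 18.6 and 17.3, and 12.3 and 12.5. The ratio of CpG-poor to CpG-rich medians thus ran from 0.592 to 1.09 for fold enrichment and from 0.615 to 1.18 for summit pileup. The 4 libraries with a ratio of at least 0.97 held 24727 to 37533 peaks, and the other 4 held 16730 to 21715 peaks. The part of list length in this ordering was not tested.

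**Figure D3:**
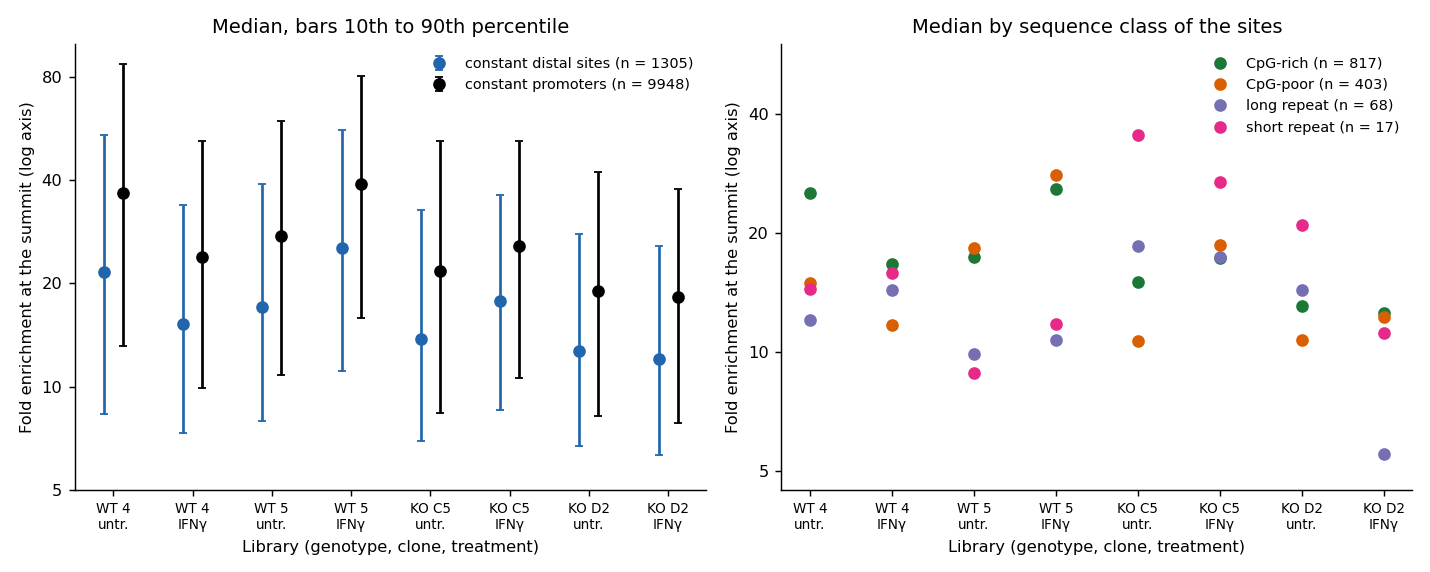
Fold enrichment at the summit (log axis) in each of the 8 libraries, named by genotype, clone and treatment. Left, medians with bars from the 10th to the 90th percentile for constant distal sites and constant promoters, the sites lying below the promoters in every library; right, medians of the 4 classes, with CpG-poor below CpG-rich sites in both libraries of WT clone 4 and in the untreated KO libraries.

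The strongest sites in all libraries were mostly CpG-rich. By the lowest percentile over the 8 lists, 8 of the top 10 were CpG-rich and the others were short repeats. The site nearest to LINC01691 (chr1:125179973-125180475) was the strongest peak of every list by −log10 p, with summit pileups of 3241 to 5786 fragments and fold enrichment of only 7.89 to 63.2. A site 1624 bp from SFN, which encodes the cell cycle inhibitor 14-3-3 sigma (chr1:26864773-26866364, intergenic), had fold enrichment of 119 and 93.3 in untreated WT, 71.9 and 103 in IFNγ WT, 85.6 and 62.2 in untreated KO and 81.6 and 50.6 in IFNγ KO libraries. All of these values overlapped between genotypes and treatments. The site at ENSG00000256969 (chr12:4030946-4031858) ranged from 48.3 to 181, and that in an intron of the lncRNA gene ENSG00000230490 on chromosome 13 from 59.6 to 140. The site 1367 bp upstream of MRGBP, a subunit of the NuA4 acetyltransferase complex, ranged from 40.2 to 112.

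The 6 gene lists held 225 genes and were chosen with earlier results of these data known. Of the distal regions nearest to the genes of a list, between 1.10% and 12.5% were constant, against 4.47% of all distal regions, and the share was above that value in all lists but that of extracellular matrix and adhesion genes. Of 66 interferon response genes, 2 were nearest to a site. The site 6474 bp downstream of the SOCS3 start, which encodes a feedback inhibitor of cytokine signalling (chr17:78352673-78353600), had fold enrichment of 65.6 and 37.8 in untreated WT, 39.0 and 59.7 in IFNγ WT, 40.6 and 28.7 in untreated KO and 41.9 and 19.2 in IFNγ KO libraries. The site upstream of the adhesion receptor gene ICAM1, in an intron of the lncRNA gene LIMASI, had 7.01 to 21.3. Neither set of values separated treated from untreated libraries. These 2 sites were 6.90% of the 29 distal regions of any library count nearest to genes of that list.

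AP-1 and immediate early genes had 4 sites, at FOS, FOSL2, IER5 and MYC, among 32 distal regions (12.5%). FOSL2, which encodes an AP-1 subunit, had an upstream site in an intron of FOSL2-AS1 (chr2:28390078-28391271) with 20.0 and 12.9 in untreated WT, 28.6 and 28.3 in IFNγ WT, 25.1 and 16.0 in untreated KO and 30.6 and 32.1 in IFNγ KO libraries. Every IFNγ value was above every untreated value as deposited, but after centring the treated and untreated libraries overlapped. The centred difference was 0.71 ± 0.25 (SE, log2, adjusted p = 0.88, limma). By clone, the centred change was 1.12 in WT clone 4, 0.62 in WT clone 5, 0.04 in KO clone C5 and 1.07 in KO clone D2. TGF-beta and YAP/TEAD targets had 5 sites, at AMOTL2, ID2, ID3, SMAD2 and SMAD7 (9.43% of 53). AMOTL2, which encodes a YAP inhibitor, had an intronic site with 57.0 and 56.0 in untreated WT, 43.7 and 68.7 in IFNγ WT, 21.7 and 27.9 in untreated KO and 23.2 and 19.6 in IFNγ KO libraries. The KO values were all below the WT values, while the pileups of 81 to 112 in KO and 70 to 121 in WT libraries overlapped.

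Growth control genes had 5 sites, at BCL2L1, IGF1R, the insulin receptor gene INSR (2 sites) and PDGFRA (9.62% of 52). The intronic INSR site had fold enrichment of 26.8 to 78.0 and that of IGF1R 19.4 to 59.6. Osteoblast and mesenchymal factors had 3 sites, at BMP2, SNAI1 and TWIST2 (5.56% of 54), and extracellular matrix and adhesion genes 1, upstream of ACTB (1.10% of 91). No site of any list passed a test. As a check of the cell line, promoters of VIM, RUNX2, CDH2 and FN1, genes of mesenchymal cells, were open in all 8 libraries, those of CD44 and COL1A1 in 7, SPARC in 5 and COL1A2 in 0. Among markers of other cell types, PTPRC, CD3E, CDH1, PECAM1 and CDH5 were open in 0 libraries, GFAP in 4, and EPCAM and SYP in all 8.

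IFNγ changed no site past the threshold. Values of all 11551 constant regions were centred on each library's median and tested with limma, and 0 regions (0%) and 0 sites had a Benjamini-Hochberg adjusted p under 0.05, the smallest among the sites being 0.88. At an unadjusted p under 0.05, 46 sites were higher (3.52%) and 9 lower (0.690%), against 1.75% and 1.39% of all constant regions. With the clone as a block, which pairs treated and untreated libraries, 161 sites were higher (12.3%) and 50 lower (3.83%) at that p, against 9.63% and 5.96%, with 0 sites and 1 region past the adjusted threshold. Without the untreated library of WT clone 5 and without the block, 1 library was left in that group. The median difference was then −0.04 on the log2 scale over the sites and −0.13 over all regions. With all 8 libraries it was −0.02 over the sites and −0.08 over all regions. CpG-poor sites had a median of 0.19 (282 of 403 above 0) and CpG-rich sites of −0.06 (319 of 817 above 0). By clone, the CpG-poor median was 0.20 in WT clone 4, 0.06 in WT clone 5, 0.37 in KO clone C5 and 0.21 in KO clone D2, all above 0 after centring. Without centring the values were −0.41, 0.56, 0.62 and 0.14, so that WT clone 4 turned. Single sites spread widely round these medians, from −0.61 to 1.10 between the 10th and 90th percentiles in WT clone 4 and from −0.55 to 1.60 in KO clone C5.

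After centring, all 4 IFNγ libraries were above all untreated libraries at 13 sites (0.996%, against 0.710% of constant regions) and below them at 13 (0.996%, against 1.65%). For fold enrichment as deposited the counts were 11 above (0.843%, against 0.312%) and 0 below (0%, against 0.0346%). By centred summit pileup they were 21 above (1.61%, against 1.05%) and 21 below (1.61%, against 2.81%). The largest of these higher sites lay 2541 bp from SEPTIN9-DT (chr17:77254984-77255848, CpG-poor, with an AP-1 match). Its fold enrichment was 9.84 and 16.2 in untreated WT, 19.9 and 37.5 in IFNγ WT, 6.11 and 12.6 in untreated KO and 24.8 and 18.8 in IFNγ KO libraries, a centred difference of 1.18 ± 0.34 (SE, log2). ENSG00000260563 on chromosome 17 (1.07 ± 0.19) and FAM110A on chromosome 20 (0.94 ± 0.29) followed. As deposited, the FAM110A values overlapped, with 19.2 in untreated WT clone 5 and 16.9 in IFNγ WT clone 4. The largest lower site lay 3405 bp upstream of SNAI1, which encodes a repressor of epithelial genes (chr20:49978994-49979575, with an exact CTCF core). Its fold enrichment was 17.1 and 15.2 in untreated WT, 8.31 and 9.37 in IFNγ WT, 8.70 and 8.70 in untreated KO and 8.98 and 4.87 in IFNγ KO libraries, a centred difference of −0.65 ± 0.21. As deposited, the values overlapped, since 2 of the IFNγ libraries lay above the untreated KO libraries, and the groups separated only after centring. R3HDML (−0.57 ± 0.21) and LDHAL6FP (−0.56 ± 0.20) followed, and their values as deposited overlapped too. These 6 sites are given as values, with adjusted p = 0.88 for each.

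**Figure D4:**
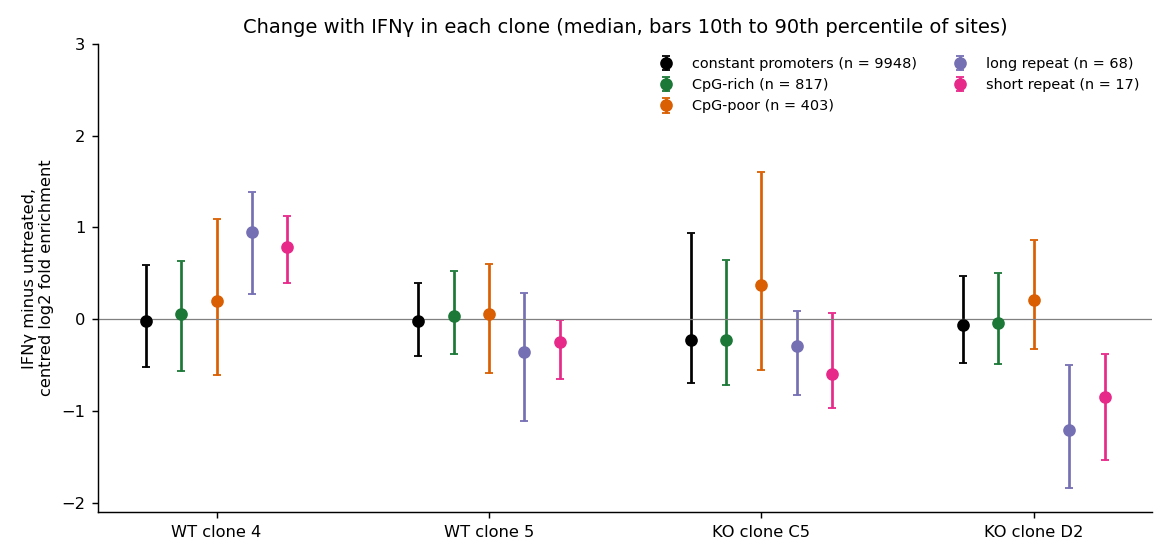
Change of log2 fold enrichment, centred on each library's median, from untreated to IFNγ in each of the 4 clones, as the median over sites of each class with bars from the 10th to the 90th percentile. CpG-poor medians lie above 0 in all 4 clones (0.06 to 0.37; without centring that of WT clone 4 is −0.41), whereas the long-repeat median is 0.95 in WT clone 4 and −1.21 in KO clone D2.

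At repeat sites the direction of the change differed between clones and, in WT clone 5, with centring. The centred long-repeat median changed with IFNγ by 0.95 in WT clone 4, by −0.36 in WT clone 5, by −0.29 in KO clone C5 and by −1.21 in KO clone D2. Without centring these values were 0.34, 0.15, −0.04 and −1.27. The short-repeat medians, in the same order, were 0.79, −0.24, −0.60 and −0.85 centred and 0.18, 0.26, −0.35 and −0.91 without centring. The median pileup at long-repeat sites was 21.5 and 20 fragments in untreated WT, 27 and 20.5 in IFNγ WT, 31 and 24 in untreated KO and 35.5 and 10.5 in IFNγ KO libraries, with the IFNγ library of KO clone D2 standing apart at the low end. In that library their median percentile was 9.65, against 45.8 to 58.3 in the other 7.

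Fold enrichment differed between KO and WT at 0 regions (0%) and 0 sites by limma on the clone means (adjusted p of 0.30 or more among the sites). At an unadjusted p under 0.05, 87 sites were higher in KO (6.67%) and 45 lower (3.45%), against 3.28% and 2.83% of all constant regions. Of those higher, 22 were long repeats and 9 short repeats. The long-repeat median KO minus WT difference was 0.69 for centred fold enrichment, with 65 of 68 sites above 0. For centred summit pileup it was −0.05, with 30 of the 68 above 0. By summit pileup, 13 sites had an unadjusted p under 0.05 (0.996%, against 0.364%) and 0 an adjusted one. Leaving out 1 clone left 1 clone of its genotype, assumed to vary like those of the other, so only median differences are given. Without WT clone 4 the median KO minus WT difference was 0.07 over the sites and 0.03 over all regions. Without WT clone 5 it was 0.10 and −0.04, without KO clone C5 0.11 and 0.01, and without KO clone D2 0.08 and 0.01. Before centring, the median of all regions was −0.55 in KO against WT and that of the sites −0.47. In that fit 10 sites were called, 8 of them short repeats, among 34 calls over all 11551 regions. After centring, the medians were 0.01 and 0.09.

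After centring, the 4 KO libraries were all above the WT libraries at 76 sites (5.82%, against 5.87% of constant regions) and all below at 74 (5.67%, against 5.94%). For fold enrichment as deposited the counts were 7 above (0.536%, against 0.0779%), 6 of them short repeats, and 233 below (17.9%, against 22.8%). By centred summit pileup the counts were 14 (1.07%, against 0.701%) and 15 (1.15%, against 0.779%), and 8 sites in each direction were shared with those by centred fold enrichment. The local background differed by genotype. Across the 1305 sites, the log2 background of 2 libraries correlated with r of 0.967 to 0.981 in the 12 pairs of the same genotype and of 0.534 to 0.552 in the 16 pairs of different genotype, with the 2 treatments mixed in both. Summit pileup gave 0.632 to 0.914 within and 0.671 to 0.912 between genotypes. These are descriptions over sites of the same libraries. At 72 of the 74 sites with lower fold enrichment in KO the background was higher in all KO libraries, as it was at 53.5% of all sites. At the 76 sites with higher fold enrichment in KO the background was lower in all KO libraries at 10, as it was at 1.92% of all sites. Input DNA was also sequenced per the study's methods, but which control entered peak calling for each genotype is not given in the sources used here. The part of the background in these differences was not tested.

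The largest genotype differences were those of short repeats. At the site nearest to ENSG00000286968 (chr16:34587987-34588393, intergenic) fold enrichment was 6.40 and 3.89 in untreated WT, 8.57 and 5.29 in IFNγ WT, 114 and 55.4 in untreated KO and 69.6 and 30.2 in IFNγ KO libraries. All KO values were above all WT values, by 3.94 ± 0.41 on the log2 scale (SE, adjusted p = 0.30, limma). Its summit pileup was 445 and 437, 571 and 447, 705 and 307, and 513 and 255 in the same order, so the genotypes overlapped, with a centred difference of −0.24. Its local background ran from 65.8 to 112 fragments in the WT libraries and from 4.56 to 7.47 in the KO libraries.

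Similar values were found at ENSG00000290429, also on chromosome 16 (chr16:46389636-46391439). Fold enrichment was 4.89 to 10.7 in WT and 28.4 to 126 in KO libraries (3.61 ± 0.43), pileup 1024 to 1365 and 587 to 1766, and background 126 to 209 and 12.2 to 19.7. At ENSG00000276118 (chr1:143214620-143214923) fold enrichment was 7.85 to 21.0 in WT and 35.7 to 96.3 in KO libraries (3.11 ± 0.40). At another site nearest to the same gene, chr1:143253689-143254700, it ran the other way, with 63.2 to 101 in WT and 5.05 to 18.7 in KO libraries (−2.32 ± 0.39), pileups of 134 to 176 and 70 to 186, and a background of 0.757 to 1.32 and 7.60 to 13.1. Of the 17 short-repeat sites, the background was lower in all KO libraries at 10 and higher in all KO libraries at 3. Their median KO minus WT difference was 1.015 for fold enrichment and −0.31 for pileup.

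**Figure D5:**
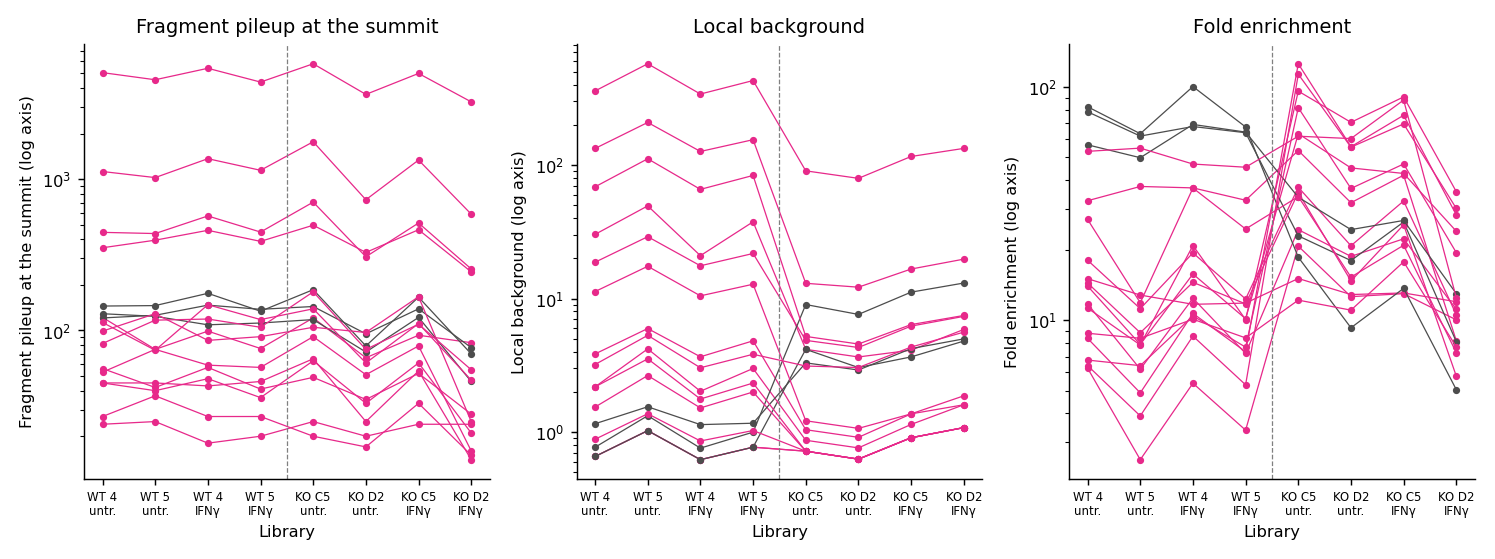
The 17 short-repeat sites in the 8 libraries (WT left and KO right of the dashed line, log axes): fragment pileup at the summit, local background and fold enrichment, each line a site, pink where the KO mean of centred fold enrichment was above the WT mean (14 sites) and grey where it was below. Pileups overlap between genotypes at all 17 sites, whereas the background of all KO libraries lies below that of all WT libraries at 10 sites and above it at 3, and fold enrichment as plotted lies above at 6 and below at 3.

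Outside the repeats, the genotype differences were smaller. The largest lower site was that nearest to ENSG00000267433 (chr19:29872961-29873938, CpG-rich, with an exact CTCF core), with fold enrichment of 33.4 and 16.1 in untreated WT, 17.7 and 20.4 in IFNγ WT, 6.36 and 6.32 in untreated KO and 6.24 and 5.13 in IFNγ KO libraries (−1.25 ± 0.31, adjusted p = 0.76, limma). Its pileup was 39 to 71 in WT and 38 to 55 in KO libraries and differed by −0.15. CpG-poor sites had a median KO minus WT difference of 0.12 for fold enrichment and 0.15 for pileup, and CpG-rich sites of 0.04 and −0.01. Without the 85 repeat sites, 65 sites were higher in all KO libraries (5.33%) and 71 lower (5.82%).

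The IFNγ response did not differ between genotypes past the threshold at any of the 11551 regions (0%) or 1305 sites (adjusted p of 0.71 or more, limma on the clone differences). At an unadjusted p under 0.05, 33 sites had a higher response in KO (2.53%) and 81 a lower one (6.21%), against 2.92% and 3.75% of all constant regions. Of the 81, 26 were long repeats and 8 short repeats. Both KO clones responded above both WT clones at 167 sites (12.8%, against 14.1%) and below them at 294 (22.5%, against 25.0%) after centring, and at 101 (7.74%, against 6.22%) and 120 (9.20%, against 5.49%) as deposited. The largest higher response was that of LINC02205 (chr15:70492292-70493356), by 1.56 ± 0.60 (SE, log2). Its centred responses were −1.27 and 0.38 in WT clones 4 and 5 and 1.79 and 0.45 in KO clones C5 and D2. The WT clones thus went opposite ways, and as deposited the response of KO clone D2 was below that of WT clone 5. In WT clone 4 its pileup was 9 fragments with IFNγ, against 38 untreated. The largest lower response was that of the long-repeat site nearest to ENSG00000279924 (chr13:16566590-16566894), by −2.05 ± 0.39. This long-repeat site had 11.48 and 9.88 in untreated WT, 22.1 and 21.5 in IFNγ WT, 21.5 and 20.3 in untreated KO and 14.2 and 9.14 in IFNγ KO libraries, with pileups of 18 to 37 fragments in all 8.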

How the data were processed

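The authors trimmed reads, aligned them to GRCh38 with bowtie2 2.2.5, kept reads of high mapping quality with samtools 1.14 and called peaks per library with MACS2 2.2.7.1 in paired-end mode. The deposited lists (16730 to 37533 peaks on chromosomes 1 to 22 and X) give, per the authors' caller, fold enrichment as a ratio, −log10 p and −log10 q (lowest 1.30) and a score, which was not used. Input DNA was sequenced too, but its use in peak calling and the handling of duplicates are not given in the sources used here. The study's methods give a range of read numbers per sample and not that of each library, and the deposited lists hold no read totals, so peak counts and the pileup stand in for depth.

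Fold enrichment and the Poisson −log10 p of a peak together fix its summit pileup and local background, which were computed from them, leaving an error over 0.001 in −log10 p at 133 of 195897 peaks. A region took its strongest peak per list. The 704 peaks on other sequences were left out. Annotation was GENCODE 44 and sequence hg38, the same build. Log2 fold enrichment was centred per library and fitted with limma 3.58.1 (R 4.3.3) over all 11551 constant regions: 4 groups for IFNγ, clone means for genotype, and clone differences for the genotype difference in response. p-values measure the spread between clones and libraries of 1 cell line. Scripts (Python 3.11.15) were tested on simulated data. 1 marker gene that was checked is not reported here.

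The sites, gene lists and tests were chosen with earlier results of these data known. Named sites were the 10 strongest, the 3 of largest change per direction and test whose groups did not overlap, those nearest to listed genes (up to 4 per list), the 5 farthest from a TSS and those at the limits of the rule. PPL, ODC1-DT, GORASP2, CACNA1C and the printed repeats were chosen after their values were seen. The labels name the clone, which pairs its treated and untreated samples, and their deviations from group means correlated with r = 0.69 in WT and 0.39 in KO clones. Alternatives covered the region rule, the TSS limit, the measure, centring, the replicate block and left-out libraries.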

Additional observations from a re-analysis of the deposited data

Results flagged for a closer look

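Both WT clones moved one way and both KO clones the other with IFNγ in 9 results, which is why they are listed here. Only the sets of sites and the named sites were searched for this pattern, and its share among all constant regions is not given. Over the CpG-rich sites the median change of centred log2 fold enrichment was 0.06 and 0.04 in WT clones 4 and 5 and −0.22 and −0.04 in KO clones C5 and D2, a difference of −0.18 that was not tested. Without centring these medians were −0.55, 0.54, 0.03 and −0.11, so the WT clones went opposite ways. The values at single sites are centred too. Single sites differed by −2.05 at ENSG00000279924 on chromosome 13, by −1.78 at ENSG00000276118 (chromosome 1, start 143264477), by −1.47 at ENSG00000290429 (chromosome 16, start 46389636), by −0.74 at FOS, by −0.67 at RNU7-193P and by −0.33 at SMAD7, and by 1.51 at LINC02703 and 0.71 at ID3 in the other direction. The limma test of the genotype difference gave an adjusted p of 0.71 or more at each of these 8 sites. The first 3 were repeat sites. As deposited, the clones of each genotype still went opposite ways to the other genotype at 4 of the 8, namely those 3 and LINC02703. The sites at ENSG00000279924, ENSG00000276118 and LINC02703 had been named because their centred responses did not overlap between genotypes. Their place in this list thus partly follows from how they were picked.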

How the results depend on the processing

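Of 70 alternatives, 54 stayed close to the main result and 16 moved. Close meant a count equal to or within 1.5 times the main one, or a share within its interval. For the median GC content it meant within the standard deviation over sites. The direction of a change was not part of this rule. The number of sites ranged from 1312 to 1579 when 1 library was left out and was 985 with every list shortened to the same length. It was 2534 when only the starts of gene records counted as TSSs, and 837 with a TSS limit of 5 kb. The share in introns was 34.6% at a limit of 2 kb and 33.7% at 5 kb, and the AP-1 share was 23.7% in 500 bases. Genotype calls among the sites numbered 10 without centring, against 34 among all constant regions. With the 8 libraries as replicates there was 1 (ENSG00000286968), also the only 1 among all constant regions. The calls also moved when a WT clone was left out, which left 1 clone of that genotype. IFNγ calls and the genotype difference in response stayed at 0 when 1 library or clone was left out. With the clone as replicate block, IFNγ called 0 sites (smallest adjusted p = 0.17, limma), with 1 call among all constant regions. Alternatives chosen after seeing the data gave 14 and 15 sites (summit pileup) or 7 and 233 (no centring) in place of 76 and 74 for genotype, and 21 and 21 or 11 and 0 in place of 13 and 13 for IFNγ. With 2 clones per genotype and no depth per library in the files, small changes may not have been detectable.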
